A study of Mus musculus with 12 samples.

Results

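Cells hold their cholesterol level by making it from acetyl-CoA, taking it up and exporting it. The expression of 30 genes of these routes was followed in cultured mouse bone marrow cells, which the study describes as mesenchymal stem cells (MSCs). The 30 were taken from a written list of synthesis enzymes, regulators of the transcription factor SREBP2, carriers and esterifying enzymes, LXR receptors and efflux proteins, and were found by symbol among 54532 genes in the table. RNA-seq addressed how loss of the chromatin remodeler Chd7 alters MSC differentiation. Cells of Chd7 fl/fl mice served as control, and those of Prx1-cre;Chd7 fl/fl mice are labelled knockout; Cre is driven there by a promoter of early limb mesenchyme. Mice were on a C57BL/6 background and 4 weeks old, and cells were used at passage 3. Dexamethasone was in both media, at 10 nM in the osteogenic and 1 µM in the adipogenic one. The osteogenic medium also held β-glycerophosphate (10 mM) and ascorbic acid (50 µM), and the adipogenic one isobutylmethylxanthine (0.5 µM) and insulin (10 µg/ml). Each genotype had 3 libraries in each medium, 12 in all in 4 groups, with 17490797 to 21093450 fragments recovered on genes per library. The labels do not say whether the 3 are separate animals, so p-values measure the spread between these libraries. Levels are FPKM, fragments per kilobase of gene with sequencing depth divided out, and 3 fragments per kilobase stand for 0.143 to 0.185 FPKM, depending on the library. All 30 genes reached 1 FPKM in 3 or more libraries and were tested, and the fewest fragments recovered for one of them in a library were 62, for Fdps.

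When sterols are scarce in the endoplasmic reticulum, the carrier Scap escorts SREBP2 (encoded by Srebf2) to the Golgi, where it is cut and released to switch on the synthesis genes, whereas sterols and the Insig proteins hold the complex back. When sterols are plentiful, oxysterols activate the LXR receptors (Nr1h3, Nr1h2), which raise the exporters Abca1 and Abcg1, the lipoprotein ApoE and Mylip, the ligase that degrades lipoprotein receptors. Soat1 esterifies cholesterol for storage, and macrophages are known for high activity of the LXR arm.

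Chd7 itself was at 2.64, 2.67 and 2.77 FPKM in control and 2.03, 2.35 and 2.28 FPKM in labelled-knockout libraries of osteogenic cultures (log2 fold change -0.20 with a standard error of 0.0787, adjusted p = 0.16 in limma). In adipogenic medium it was at 2.26, 1.81 and 2.23 FPKM in control and 2.03, 2.35 and 2.48 FPKM in labelled-knockout libraries (log2 fold change 0.09 with a standard error of 0.0787, adjusted p = 0.428 in limma). The libraries labelled knockout lay below control in osteogenic medium, and the groups overlapped in adipogenic medium, so genotype is named by label throughout. A value for the whole gene shows a deletion of part of it only in part, and reads by exon were not analysed.

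Control adipogenic library 2 stood apart. Across genes, which are not independent replicates, its Pearson's r on the log2 scale was 0.939 and 0.943 with the other control adipogenic libraries, against 0.980 to 0.982 with control osteogenic, 0.983 to 0.984 with labelled-knockout osteogenic and 0.964 to 0.969 with labelled-knockout adipogenic libraries. Labelled-knockout adipogenic library 1 had an r of 0.980 and 0.981 with its group, whose other libraries had an r of 0.992 with each other. Of 10 mesenchymal markers 8 could be tested, among them Col1a1 at 587 to 1073 FPKM over the 12 libraries, whereas Thy1 and Lepr did not exceed 1.13 FPKM. In adipogenic medium 6 of the 8 were higher and none was lower in control libraries in limma, and 6 were higher and 1 lower in labelled-knockout ones. Between genotypes 4 were higher and 1 lower in adipogenic libraries labelled knockout, and 4 and 0 in osteogenic ones. Of 5 osteoblast markers 2 were higher and 1 lower in control and all 5 higher in labelled-knockout adipogenic libraries than in osteogenic ones. Alpl, an alkaline phosphatase, was at 4.41 to 6.62 FPKM in osteogenic and 21.96 to 57.5 FPKM in adipogenic libraries. Between genotypes 3 of the 5 were higher in adipogenic and 1 lower in osteogenic libraries labelled knockout. The adipocyte markers Adipoq, Plin1, Cidec and Lep did not exceed 0.600 FPKM in any library, whereas Lpl was at 53.8 to 117 FPKM, Cebpa at 40.7 to 108 FPKM, Fabp4 at 12.7 to 39.2 FPKM and Pparg at 3.85 to 12.4 FPKM. Fabp4 (-1.18), Lpl (-0.93) and Cebpa (-1.07) were lower in adipogenic than in osteogenic medium in control, and Fabp4 (0.79) and Lpl (0.35) were higher in labelled-knockout libraries. Between genotypes the same 2 were higher in adipogenic (Fabp4: 1.29; Lpl: 0.37) and lower in osteogenic libraries labelled knockout (Fabp4: -0.68; Lpl: -0.91). All 16 macrophage markers on a list were present. Their summed level was 14904, 15413 and 15374 FPKM in control and 16823, 16450.5 and 16362 FPKM in labelled-knockout osteogenic libraries. It was 19785, 10215 and 19660.2 FPKM in control and 9798, 8322 and 8532 FPKM in labelled-knockout adipogenic libraries. The most abundant of them in each library, Lyz2, ranged from 3845 to 14412 FPKM. The 10 mesenchymal markers summed to 1229 to 1863 FPKM, below the macrophage sum in every library. Such sums do not give shares of cells. Adgre1, a macrophage surface receptor, was at 1171, 227 and 1136 FPKM in control and 255, 129.6 and 127 FPKM in labelled-knockout adipogenic libraries. Control adipogenic libraries 1 and 3 were the high ones for this gene and for the sum, most of which is Lyz2 there (at 13878, 5456 and 14412 FPKM in the 3 control adipogenic libraries). Of the 16, 11 were higher in both libraries 1 and 3 than in library 2, and 4, Cd68, Mrc1, C1qb and C1qc, were lower in both, with Cd68 at 517, 861 and 491, Mrc1 at 36.8, 107 and 35.7 and C1qc at 488, 561 and 388 FPKM. Of 4 tested endothelial markers 2 were higher in adipogenic libraries labelled knockout and 2 in osteogenic ones, among them Cdh5 in each medium, at a mean of 0.660 FPKM in control against 2.82 FPKM in osteogenic and 1.05 against 2.61 FPKM in adipogenic libraries. Between the media 1 was higher and 1 lower in each genotype. In limma 4 of the 16 macrophage markers were higher and 8 lower in labelled-knockout than in control adipogenic libraries, 1 and 4 in osteogenic medium. Between the media 1 was higher and 6 were lower in control adipogenic libraries, 1 and 3 in labelled-knockout ones. Beside these marker counts, the shares of all genes tested that were higher and lower were 16.7% and 16.5% between genotypes in adipogenic and 4.94% and 4.15% in osteogenic medium, and 10.5% and 12.3% between the media in control and 13.9% and 14% in labelled-knockout libraries. Without control adipogenic library 2, the numbers higher and lower between genotypes in adipogenic medium were 7 and 9 macrophage, 5 and 1 mesenchymal, 4 and 1 osteoblast, 4 and 0 adipocyte and 3 and 1 endothelial markers, and 3123 and 3446 of the 12871 genes. Between the media in control they were then 8 and 7, 6 and 0, 2 and 2, 0 and 4, and 2 and 1, and 3155 and 3001 of all genes. The part of any marker list in the results that follow was not tested, and fewer cells of a type and less RNA per cell cannot be told apart in bulk samples.

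**Figure D1:**
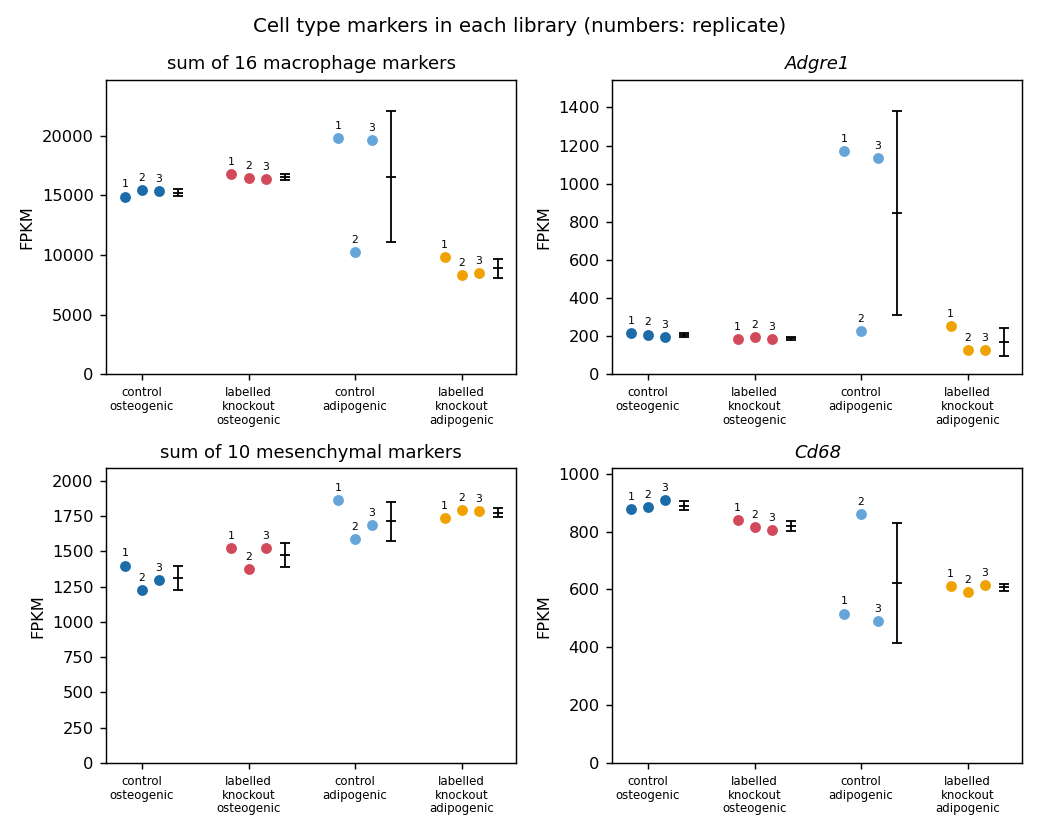
Summed FPKM of 16 macrophage and 10 mesenchymal markers, and FPKM of Adgre1 and Cd68, in each library; points are libraries numbered by replicate and bars give the mean ± SD (n = 3). Control adipogenic library 2 has 227 FPKM of Adgre1, where libraries 1 and 3 have 1171 and 1136.

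The enzymes of cholesterol synthesis were lower in adipogenic than in osteogenic medium in both genotypes. Of 18 enzymes, 15 were lower and none was higher in control libraries in limma, with a median log2 fold change of -0.47 against 0.01 over all genes tested. In the libraries labelled knockout 15 were lower and none was higher, with a median of -0.62 against 0.00. All 18 had a negative fold change in each genotype, and both medians stayed negative under every scaling tried. Over the 30 genes, 0 were higher and 20 lower in control libraries, where 10.5% and 12.3% of the 12871 genes tested passed in those directions; 26 of the 30 had an unadjusted p under 0.05 in either direction, and limma voom on recovered fragments called 0 and 19. In labelled-knockout libraries 1 was higher and 21 were lower, where 13.9% and 14% of all genes passed. Each comparison is within 1 genotype, and medium and culture batch cannot be told apart. Groups without overlap, as named below, were common. Over the 12871 genes this held, higher and lower, for 2082 and 2351 between the media in control and 3346 and 3409 in labelled-knockout libraries. Between genotypes it held for 2709 and 2992 in osteogenic and 2605 and 2364 in adipogenic medium.

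Hmgcs1, which makes HMG-CoA at the head of the mevalonate pathway, was at 31.5, 31.9 and 31.9 FPKM in control and 32.6, 34.95 and 33.5 FPKM in labelled-knockout osteogenic libraries. In adipogenic medium it was at 19.4, 25.8 and 19.1 FPKM in control and 18.7, 20.3 and 18.4 FPKM in labelled-knockout libraries. All adipogenic libraries lay below all osteogenic ones, and control adipogenic library 2 was the highest of them (control: log2 fold change -0.56 with a standard error of 0.0960, adjusted p = 0.0042 in limma; labelled knockout: log2 fold change -0.79 with a standard error of 0.0960, adjusted p = 0.00029 in limma). Mvd, the decarboxylase that yields isopentenyl diphosphate, was at 34.1, 34.5 and 36.7 FPKM in control and 46.6, 46.7 and 39.7 FPKM in labelled-knockout osteogenic libraries. Its adipogenic levels were 22.8, 30.7 and 22.7 FPKM in control and 22.2, 21.9 and 21.1 FPKM in labelled-knockout libraries. The osteogenic libraries labelled knockout were the highest and the adipogenic ones the lowest, without overlap (control: log2 fold change -0.46 with a standard error of 0.106, adjusted p = 0.0143 in limma; labelled knockout: log2 fold change -0.99 with a standard error of 0.106, adjusted p = 0.000136 in limma). Dhcr7, a reductase of the last steps, was at 11.95, 12.2 and 12.3 FPKM in control and 16.6, 15.6 and 15.8 FPKM in labelled-knockout osteogenic libraries. It was at 6.19, 10.98 and 5.78 FPKM in control and 6.17, 7.98 and 7.42 FPKM in labelled-knockout adipogenic libraries. Adipogenic libraries were again the low ones, with control library 2 close to the osteogenic controls (control: log2 fold change -0.65 with a standard error of 0.179, adjusted p = 0.0281 in limma; labelled knockout: log2 fold change -1.06 with a standard error of 0.179, adjusted p = 0.0019 in limma).

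The other early enzymes with a lower level in both genotypes were Pmvk (-0.34 in control and -0.33 in labelled-knockout libraries, log2 fold change), Idi1 (-0.54 and -0.80) and Fdps (-0.47 and -0.46). Among enzymes from squalene to cholesterol these were Fdft1 (-0.27 and -0.26), Sqle (-0.46 and -0.64), Lss (-0.55 and -0.66), Cyp51 (-0.55 and -0.75), Tm7sf2 (-0.67 and -0.67), Msmo1 (-0.58 and -0.55), Nsdhl (-0.62 and -0.59) and Sc5d (-0.43 and -0.30). Acat2, which condenses acetyl-CoA, passed in labelled-knockout libraries (-0.72, limma adjusted p = 0.006) and not in control (-0.45, limma adjusted p = 0.0578), and the mevalonate kinase Mvk passed in control (-0.33, limma adjusted p = 0.0449) and not in labelled-knockout libraries (-0.19, limma adjusted p = 0.218). These differences between genotypes did not pass the interaction test (Acat2: -0.27, limma adjusted p = 0.393; Mvk: 0.15, limma adjusted p = 0.51). Ebp and Hsd17b7 passed in neither. Values for Fdps and Fdft1 are uncertain, because 26.7% of the exonic bases of Fdps are shared with Gm43738 on the same strand, a gene at 0 FPKM in all libraries, and 18.3% of those of Fdft1 lie over exons of Ctsb on the other strand, a gene at up to 2652 FPKM. Fdps and Acat2 are also known to have close copies in the genome, and a split of reads among these was not tested. Exons of Hmgcs1, Idi1, Lss, Cyp51, Tm7sf2, Scap and Nr1h3 also overlap those of another gene, which did not exceed 3.10 FPKM in any library, and strand use is not known, so small parts of their values are uncertain.

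By library, the median of the 18 enzymes, as log2(FPKM + 1) minus the control osteogenic mean, was -0.67, -0.21 and -0.59 in control and -0.57, -0.48 and -0.52 in labelled-knockout adipogenic libraries. The same median over all genes lay between -0.02 and 0.00 in these libraries. All were below 0, and control adipogenic library 2 had less than the others of the drop. Without it 17 enzymes were lower in control cells, with a median log2 fold change of -0.62. Without library 1 or 3 of that group 10 were lower, with a median of -0.39 and -0.45. Of the 12871 genes 3001 were lower without library 2 and 803 and 795 without library 1 or 3, against 1581 with all libraries. Over the 30 genes, 14 of the 20 were still called without control adipogenic library 1 or 3, 16 without control osteogenic library 1 or 2 and 15 without control osteogenic library 3. The calls lost in at least 1 of these fits were those of Mvk (limma adjusted p = 0.103 to 0.136 where lost), Mvd (0.052 to 0.0579), Idi1 (0.0657 to 0.0823), Fdft1 (0.0521 to 0.0595), Dhcr7 (0.073 to 0.104) and Scap (0.0559 to 0.0864). A fit to the 6 control libraries alone called 3 of the 30 lower, Sc5d, Soat1 and Apoe, where 178 genes of the 12871 were higher and 312 lower. With a block for the replicate number added to that fit of 6 control libraries, 0 of the 30 passed by limma adjusted p, and 0 of the 12871 genes. There 20 of the 30 and 3034 of all genes had an unadjusted p under 0.05. Without the filter on low values Mvk (0.0926), Idi1 (0.0531) and Dhcr7 (0.0634) did not pass in control by limma adjusted p. Rescaled to the same sum of FPKM, Mvk (0.0691) and Scap (0.0528) did not in control, nor Pmvk (0.147), Fdft1 (0.224), Msmo1 (0.068), Sc5d (0.184), Srebf2 (0.1) and Scap (0.0765) in labelled-knockout libraries.

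**Figure D2:**
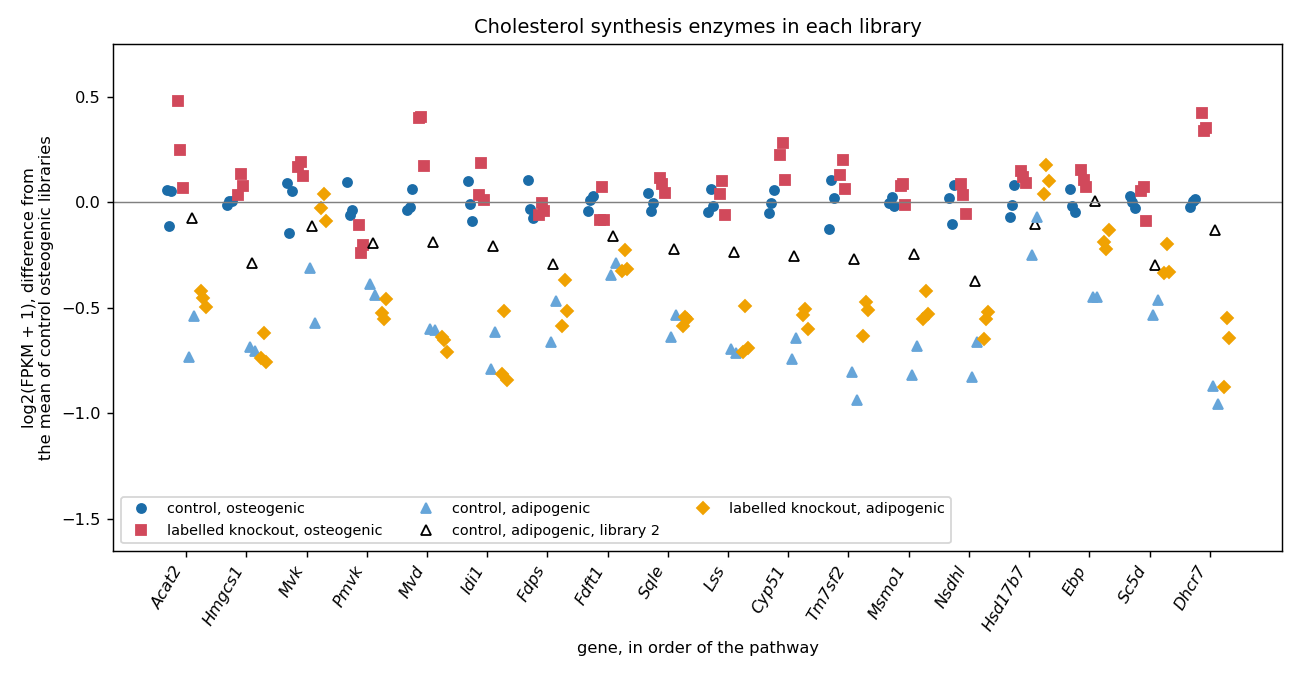
Level of 18 synthesis enzymes in each of 12 libraries, as log2(FPKM + 1) minus the mean of the control osteogenic libraries; each point is a library, and open triangles mark control adipogenic library 2. Adipogenic libraries lie mostly below 0, with medians of -0.67 to -0.21.

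Promoter sequences are shown for 4 genes because their levels moved together between the media: of the 16 genes lower in both genotypes, 10 had exactly 1 promoter in the RefSeq table (GRCm38.p6), and these 4 had the largest mean drop. Of the 30 genes 25 matched the table, with 34 promoters; Fdps, Fdft1, Sqle, Stard4 and Abcg1 had no entry. The 250 bases before the start are printed 5′ to 3′, with capitals for matches on either strand to TCACNCCAC (a sterol response element), CCAAT and GGGCGG (a GC box). The positions are chr8:122443423-122443672, minus strand for Mvd, chr5:28071162-28071411, plus strand for Insig1, chr13:119690101-119690350, plus strand for Hmgcs1 and chr13:8885356-8885605, plus strand for Idi1. The starts are those of RefSeq. In the gene coordinates used for the levels, Insig1 starts at 28071363 and Idi1 at 8885501, so the last part of each printed stretch lies within the gene there.
Mvd: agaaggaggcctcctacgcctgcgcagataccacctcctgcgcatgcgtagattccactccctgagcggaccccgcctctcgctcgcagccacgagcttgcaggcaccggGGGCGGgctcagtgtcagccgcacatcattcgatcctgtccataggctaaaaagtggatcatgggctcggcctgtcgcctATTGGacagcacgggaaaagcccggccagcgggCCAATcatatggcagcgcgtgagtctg
Insig1: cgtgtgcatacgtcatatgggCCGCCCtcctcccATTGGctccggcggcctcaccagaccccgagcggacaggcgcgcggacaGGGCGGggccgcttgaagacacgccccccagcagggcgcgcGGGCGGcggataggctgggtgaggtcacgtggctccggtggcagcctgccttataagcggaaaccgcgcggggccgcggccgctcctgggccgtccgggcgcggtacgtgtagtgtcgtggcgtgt
Hmgcs1: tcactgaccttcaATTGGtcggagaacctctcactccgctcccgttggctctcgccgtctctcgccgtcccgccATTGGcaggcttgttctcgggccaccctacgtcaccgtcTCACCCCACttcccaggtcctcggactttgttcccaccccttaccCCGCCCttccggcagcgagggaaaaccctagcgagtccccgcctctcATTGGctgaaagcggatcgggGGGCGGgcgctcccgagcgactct
Idi1: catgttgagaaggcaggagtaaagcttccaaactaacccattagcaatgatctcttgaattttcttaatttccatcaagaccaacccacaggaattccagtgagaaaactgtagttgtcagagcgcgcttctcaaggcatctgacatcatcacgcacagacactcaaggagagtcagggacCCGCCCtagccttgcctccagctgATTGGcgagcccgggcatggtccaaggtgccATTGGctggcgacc
TCACNCCAC was found in 1.05% of all 32851 promoters at this length and in 1 of the 34 promoters of the 25 genes, that of Hmgcs1, from 137 to 129 bases before the start. CCAAT was found in 33.9% of all promoters and in 19 of the 34, and GGGCGG in 32.7% and 22 of the 34. After that single match, 6 looser forms were searched as well: TCACNCNAC (2.26% of all promoters, 2 of the 34), CACNCCAC (5.29%, 3), TCACCCCA (1.34%, 3), TCACNCCA (3.67%, 4), CACNCCA (15.6%, 9) and TCACCCNAC (0.858%, 2). These forms overlap TCACNCCAC and each other, and they are not marked in the sequences. A match describes letters only.

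Insig1, which holds Scap back when sterols are plentiful and is itself switched on by SREBP2, was at 50.4, 49.3 and 48.9 FPKM in control and 54.6, 54.8 and 50.2 FPKM in labelled-knockout osteogenic libraries. In adipogenic medium it was at 29.4, 42.4 and 27.9 FPKM in control and 29.1, 32.5 and 30.5 FPKM in labelled-knockout libraries. Adipogenic libraries were low without overlap, and control library 2 was the highest of them (control: log2 fold change -0.59 with a standard error of 0.127, adjusted p = 0.0113 in limma; labelled knockout: log2 fold change -0.78 with a standard error of 0.127, adjusted p = 0.00159 in limma). Its paralog Insig2 passed in neither genotype (0.15 and 0.05). Stard4, a carrier of cholesterol between membranes, was at 17.1, 17.1 and 15.8 FPKM in control osteogenic and 10.2, 13.2 and 10.3 FPKM in control adipogenic libraries. In labelled-knockout libraries it was at 15.8, 16.1 and 15.7 FPKM in osteogenic and 8.80, 10.1 and 9.38 FPKM in adipogenic medium. Both genotypes had lower levels in adipogenic medium without overlap (control: log2 fold change -0.54 with a standard error of 0.0874, adjusted p = 0.00322 in limma; labelled knockout: log2 fold change -0.70 with a standard error of 0.0874, adjusted p = 0.000338 in limma). Soat1 was lower in control (-0.52, limma adjusted p = 0.0019), and Mylip (-1.14, limma adjusted p = 9.54e-05) and Srebf2 (-0.25, limma adjusted p = 0.00064) were lower in labelled-knockout adipogenic libraries. Scap went in opposite directions, lower in adipogenic medium in control (-0.26, limma adjusted p = 0.0225) and higher in labelled-knockout libraries (0.27, limma adjusted p = 0.0144). Of the efflux genes, Apoe was lower in control (-1.34, limma adjusted p = 0.00145), and Abca1 (-1.11, limma adjusted p = 0.0319) and Abcg1 (-0.75, limma adjusted p = 0.000163) were lower in labelled-knockout adipogenic libraries. That call for Abca1 was lost in 5 of 6 fits that left out 1 library, at limma adjusted p = 0.0852 without labelled-knockout osteogenic library 1, 0.0789 without labelled-knockout osteogenic library 2, 0.0746 without labelled-knockout osteogenic library 3, 0.0846 without labelled-knockout adipogenic library 2 and 0.115 without labelled-knockout adipogenic library 3, and the rise of Scap in 2, at 0.0603 without labelled-knockout osteogenic library 2 and 0.0588 without labelled-knockout adipogenic library 3. The call of Abca1 in labelled-knockout libraries was also lost without the filter on low values (limma adjusted p = 0.0709). Without control adipogenic library 2, Scap in control was at -0.33 (limma adjusted p = 0.000483). In that fit Nr1h3 (1.90, limma adjusted p = 0.00109), Abca1 (0.81, limma adjusted p = 0.00846) and Insig2 (0.25, limma adjusted p = 0.00883) were higher and Acat2 (-0.64, limma adjusted p = 0.000997) and Ebp (-0.45, limma adjusted p = 3.22e-05) lower in control adipogenic libraries.

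**Figure D3:**
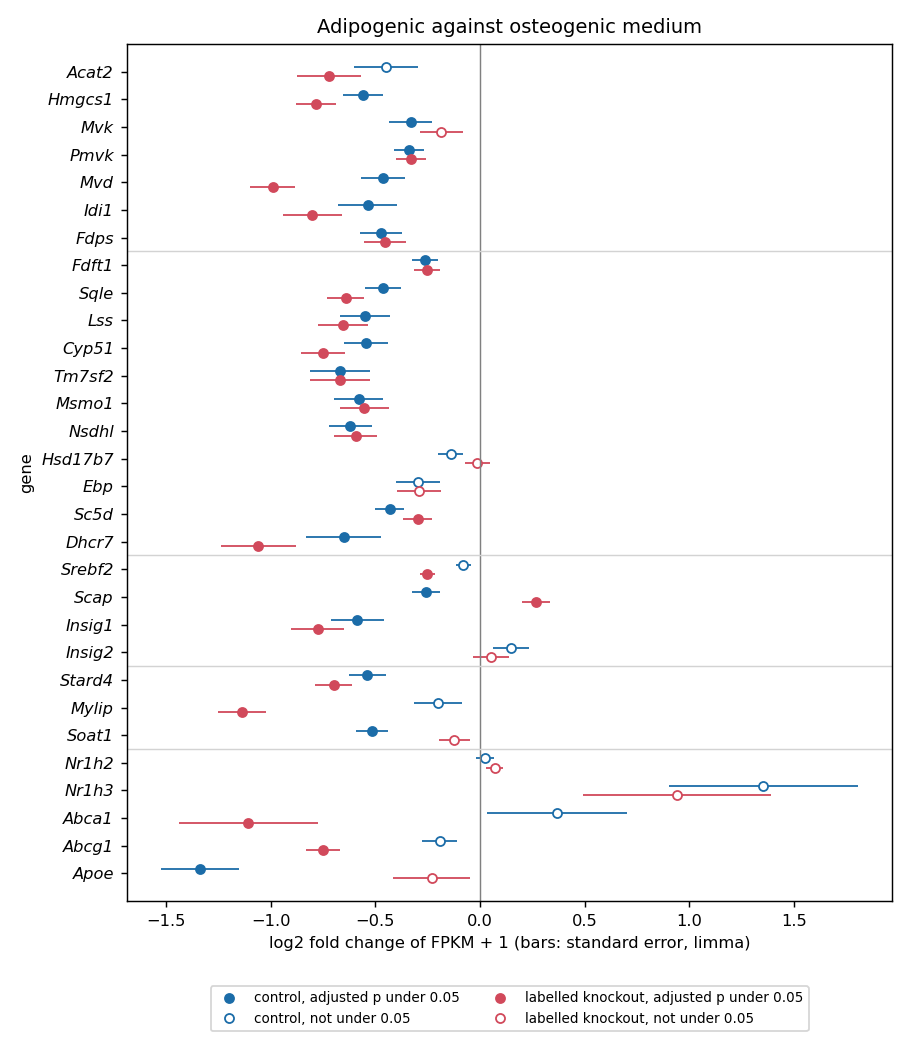
Log2 fold change of FPKM + 1, adipogenic against osteogenic medium, for 30 genes in control and in labelled-knockout libraries; bars are standard errors from limma and filled points have an adjusted p under 0.05. Most synthesis enzymes lie left of 0 in both genotypes, with medians of -0.47 and -0.62.

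In osteogenic medium 1 of the 30 cholesterol genes passed between genotypes. None was higher and 1 was lower in libraries labelled knockout, where 4.94% and 4.15% of all genes tested passed in limma, so the shares were near those of all genes, and 4 of the 30 had an unadjusted p under 0.05. Soat1 (ENSMUSG00000026600, chromosome 1 of GRCm38 from 156424525 to 156474331) was the one, at 46.6, 48.7 and 46.1 FPKM in control and 34.98, 36.7 and 36.1 FPKM in labelled-knockout libraries. All 3 control libraries lay above all 3 others (log2 fold change -0.38 with a standard error of 0.0752, adjusted p = 0.0118 in limma; 47.2 ± 1.38 against 35.9 ± 0.857 FPKM, SD, n = 3). In adipogenic medium it was at 30.2, 36.6 and 31.5 FPKM in control and 29.9, 34.8 and 34.2 FPKM in labelled-knockout libraries, which overlapped. The osteogenic call was lost in 2 of 6 fits that left out 1 library, at limma adjusted p = 0.0565 without control osteogenic library 2 and 0.0537 without labelled-knockout osteogenic library 1, and with libraries rescaled to the same sum of FPKM it was at 0.127. Of the 18 synthesis enzymes 15 had a positive fold change, with a median of 0.08 against -0.01 over all genes; none passed in limma or limma voom. Dhcr7 (0.37, limma adjusted p = 0.25) and Mvd (0.32, limma adjusted p = 0.0916) had the largest of these. Mvd and, with a negative fold change, Pmvk (-0.18, limma adjusted p = 0.154) had an unadjusted p under 0.05. Apoe (-0.48, limma adjusted p = 0.147) and Abca1 (0.51, limma adjusted p = 0.411), whose genotypes did not overlap in osteogenic medium, did not pass in the fit that pools the spread of all 4 groups. In a fit to the 6 osteogenic libraries alone 7 of the 30 passed: Mvd, Cyp51, Dhcr7 and Abca1 higher, and Soat1, Nr1h3 and Apoe lower in labelled-knockout libraries. In that fit 1677 of the 12871 genes were higher and 1741 lower, so these 4 and 3 were near the shares of all genes.

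In adipogenic medium 4 of the 30 were higher and 4 lower in libraries labelled knockout, where 16.7% and 16.5% of all genes tested passed in limma, so the shares were near those of all genes. The median log2 fold change of the 30 was -0.04, against -0.01 over all genes. Mylip (ENSMUSG00000038175, chromosome 13 of GRCm38 from 45389742 to 45412022) was at 17.1, 19.7 and 18.1 FPKM in control and 7.53, 10.7 and 11.02 FPKM in labelled-knockout adipogenic libraries. Its osteogenic levels were 22.2, 20.8 and 20.6 FPKM in control and 21.6, 23.8 and 21.6 FPKM in labelled-knockout libraries. The adipogenic libraries labelled knockout were the only low ones, below all others (log2 fold change -0.86 with a standard error of 0.115, adjusted p = 0.00046 in limma; 18.3 ± 1.33 against 9.74 ± 1.92 FPKM, SD, n = 3). Abcg1, which exports cholesterol to lipoprotein particles (ENSMUSG00000024030, chromosome 17 of GRCm38 from 31057675 to 31117988), was at 19.02, 14.5 and 16.05 FPKM in control and 10.1, 10.2 and 9.54 FPKM in labelled-knockout adipogenic libraries. In osteogenic medium it was at 19.8, 18.1 and 18.97 FPKM in control and 18.2, 17.5 and 16.6 FPKM in labelled-knockout libraries. Again the adipogenic libraries labelled knockout were below all others (log2 fold change -0.67 with a standard error of 0.0827, adjusted p = 0.00028 in limma; 16.5 ± 2.28 against 9.95 ± 0.356 FPKM, SD, n = 3).

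Abca1, which loads cholesterol onto apolipoproteins (ENSMUSG00000015243, chromosome 4 of GRCm38 from 53030787 to 53159895), was at 44.2, 16.6 and 42.8 FPKM in control and 22.9, 14.7 and 11.5 FPKM in labelled-knockout adipogenic libraries. In osteogenic medium it was at 25.3, 24.2 and 23.4 FPKM in control and 36.8, 34.4 and 33.9 FPKM in labelled-knockout libraries. Control adipogenic libraries 1 and 3 were high, library 2 lay within the range of the labelled-knockout group, and in osteogenic medium the labelled-knockout libraries were the higher ones (log2 fold change -0.97 with a standard error of 0.333, adjusted p = 0.0482 in limma in adipogenic medium). The fold change was -1.41 (limma adjusted p = 0.00031) without control adipogenic library 2. The call was lost in 4 fits, at limma adjusted p = 0.162 without control adipogenic library 1, 0.159 without control adipogenic library 3, 0.12 without labelled-knockout adipogenic library 2 and 0.163 without labelled-knockout adipogenic library 3. Nr1h3, the LXRα receptor, was at 49.1, 14.2 and 44.3 FPKM in control and 36.9, 12.7 and 15.8 FPKM in labelled-knockout adipogenic libraries. Its osteogenic levels were 11.8, 11.9 and 11.6 FPKM in control and 8.72, 10.1 and 10.4 FPKM in labelled-knockout libraries. Control adipogenic libraries 1 and 3 and labelled-knockout adipogenic library 1 were high and the other libraries low (log2 fold change -0.66 with a standard error of 0.450, adjusted p = 0.282 in limma). The fold change was -1.21 (limma adjusted p = 0.0125) without control adipogenic library 2. Control adipogenic libraries 1 and 3 were both above library 2 for 11 of 16 macrophage markers and both below it for 4. The part of these markers was not tested. Nr1h2, the LXRβ receptor, lay between 24.7 and 28.5 FPKM in the 12 libraries and passed in no comparison.

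Apoe (ENSMUSG00000002985, chromosome 7 of GRCm38 from 19696109 to 19699188) was the most abundant of the 30. It was at 2714, 4158 and 2199 FPKM in control and 4090.5, 4641 and 4793 FPKM in labelled-knockout adipogenic libraries. In osteogenic medium it was at 7233, 7123 and 7783 FPKM in control and 5621, 5146 and 5091 FPKM in labelled-knockout libraries. Osteogenic controls were the highest, and in adipogenic medium only control library 2 reached into the labelled-knockout range (log2 fold change 0.62 with a standard error of 0.185, adjusted p = 0.0268 in limma). Without that library the fold change was 0.88 (limma adjusted p = 5.66e-05), and the call was lost in 4 fits, at limma adjusted p = 0.0814 without control adipogenic library 1, 0.0793 without control adipogenic library 3, 0.0754 without labelled-knockout adipogenic library 2 and 0.0864 without labelled-knockout adipogenic library 3.

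Scap (ENSMUSG00000032485, chromosome 9 of GRCm38 from 110333288 to 110384950) was at 7.64, 8.94 and 7.41 FPKM in control and 11.5, 10.8 and 11.9 FPKM in labelled-knockout adipogenic libraries. Its osteogenic levels were 9.52, 9.81 and 9.84 FPKM in control and 9.46, 8.84 and 9.69 FPKM in labelled-knockout libraries. The adipogenic libraries labelled knockout were above all others (log2 fold change 0.47 with a standard error of 0.0665, adjusted p = 0.000639 in limma). With a block for the replicate number in a fit to the adipogenic libraries alone, the call of Scap was lost (limma adjusted p = 0.0762). Srebf2 (ENSMUSG00000022463, chromosome 15 of GRCm38 from 82147181 to 82205379) was at 35.8, 35.1 and 35.9 FPKM in control and 30.7, 30.2 and 29.5 FPKM in labelled-knockout adipogenic libraries. In osteogenic medium it was at 37.9, 37.1 and 38.03 FPKM in control and 37.05, 36.05 and 35.2 FPKM in labelled-knockout libraries. Its adipogenic libraries labelled knockout were below all others (log2 fold change -0.23 with a standard error of 0.0353, adjusted p = 0.000899 in limma), and with libraries rescaled to the same sum of FPKM the fold change was -0.05 (limma adjusted p = 0.629). That scaling moved the median of all genes to 0.14 from -0.01. It also ended the call of Abca1 (-0.78, limma adjusted p = 0.0569). Without control adipogenic library 2, Scap was at 0.54 (limma adjusted p = 1.86e-05), Srebf2 at -0.24 (limma adjusted p = 0.000224), Mylip at -0.81 (limma adjusted p = 0.000484) and Abcg1 at -0.76 (limma adjusted p = 1.86e-05) in this comparison.

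Of the synthesis enzymes, Mvk and Hsd17b7 passed between genotypes in adipogenic medium. Mvk was at 10.5, 12.2 and 8.56 FPKM in control and 12.98, 13.6 and 12.4 FPKM in labelled-knockout adipogenic libraries, and at 14.1, 11.9 and 13.8 FPKM in control and 14.98, 15.2 and 14.5 FPKM in labelled-knockout libraries in osteogenic medium. Hsd17b7, a ketoreductase of sterol demethylation, was at 11.5, 12.8 and 13.2 FPKM in control and 14.3, 15.8 and 14.9 FPKM in labelled-knockout adipogenic libraries, and at 13.2, 13.8 and 14.7 FPKM in control and 15.5, 15.1 and 14.9 FPKM in labelled-knockout libraries in osteogenic medium. Both were higher in adipogenic libraries labelled knockout than in control, without overlap (Mvk: log2 fold change 0.31 with a standard error of 0.104, adjusted p = 0.045 in limma; Hsd17b7: log2 fold change 0.25 with a standard error of 0.0597, adjusted p = 0.0112 in limma). The call of Mvk was lost in 5 fits, at limma adjusted p = 0.0897 without control adipogenic library 1, 0.137 without control adipogenic library 3, 0.0879 without labelled-knockout adipogenic library 1, 0.129 without labelled-knockout adipogenic library 2 and 0.0746 without labelled-knockout adipogenic library 3. Mvk was at 0.42 (limma adjusted p = 0.00289) and Hsd17b7 at 0.26 (limma adjusted p = 0.00668) without control adipogenic library 2. Then 9 of the 30 were higher and 5 lower, with Tm7sf2 (0.33), Msmo1 (0.25), Ebp (0.27), Sc5d (0.21) and Dhcr7 (0.22) added among the higher ones, where 3123 of the 12871 genes were higher and 3446 lower. With labelled-knockout adipogenic library 1 left out as well, a setting chosen after seeing the data, 11 were higher and 5 lower, beside 3260 and 3432 of all genes. A fit to the 6 adipogenic libraries alone called 4 of the 30, where 1013 of all genes were higher and 658 lower, and lost Mvk (limma adjusted p = 0.15), Hsd17b7 (0.079), Abca1 (0.184) and Apoe (0.136). Without the filter on low values Mvk (0.0902), Abca1 (0.101) and Apoe (0.224) did not pass, nor did Abca1 without the trend (0.051). With a block for the replicate number added to the fit of the 6 adipogenic libraries, 2 of the 8 still passed, Mylip and Abcg1. Hsd17b7 was then at a limma adjusted p of 0.106.

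**Figure D4:**
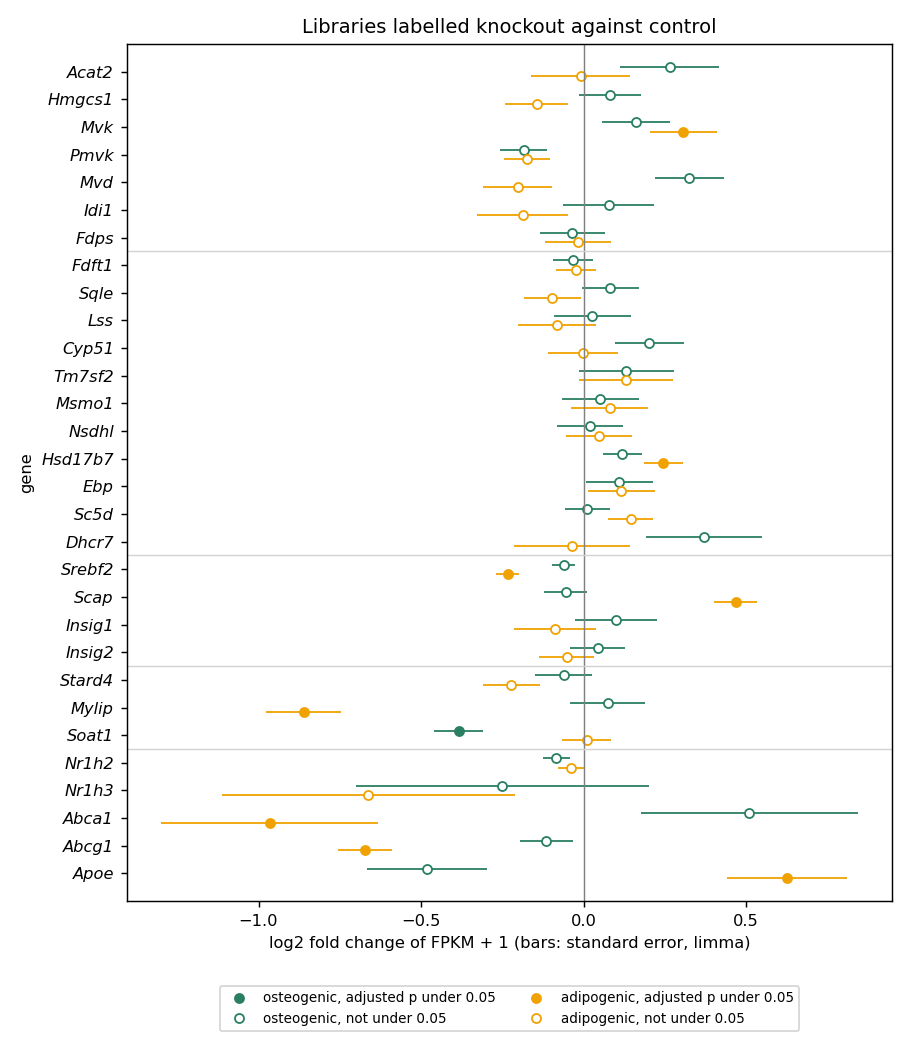
Log2 fold change of FPKM + 1 in libraries labelled knockout against control for 30 genes in each medium; bars are standard errors from limma and filled points have an adjusted p under 0.05. Soat1 passes in osteogenic medium, and Mylip, Abca1, Abcg1 and Srebf2 are lower and Mvk, Hsd17b7, Scap and Apoe higher in adipogenic medium.

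The genotype difference was compared between the media by the interaction term, adipogenic minus osteogenic. It was positive for 3 of the 30 and negative for 4, where 10.9% and 9.58% of all genes tested passed in limma, so the shares were near those of all genes. The 3 were Apoe (1.11, limma adjusted p = 0.0151), Scap (0.52, limma adjusted p = 0.0041) and Soat1 (0.39, limma adjusted p = 0.0275). Negative differences were found for Mylip (-0.94, limma adjusted p = 0.00347), Abcg1 (-0.56, limma adjusted p = 0.00873), Mvd (-0.53, limma adjusted p = 0.0335) and Srebf2 (-0.17, limma adjusted p = 0.0356). Levels of Apoe lay below control in the osteogenic libraries labelled knockout and mostly above it in the adipogenic ones, whereas Mylip and Abcg1 were lower in adipogenic medium and overlapped between genotypes in osteogenic medium. This comparison uses the same libraries as the others. Abca1 had the largest difference and did not pass (-1.48, limma adjusted p = 0.0509). Without control adipogenic library 2 it was -1.92 (limma adjusted p = 0.000434), and without labelled-knockout adipogenic library 1 it was -1.73 (limma adjusted p = 0.0303). The interactions of Apoe, Scap, Mylip and Abcg1 passed in all 12 fits that left out 1 library; without control adipogenic library 2 they were 1.36, 0.60, -0.88 and -0.64. The other 3 were lost in most of them. Mvd was lost in 8 (limma adjusted p = 0.0509 to 0.0785), all but those without labelled-knockout osteogenic library 3 or 1 of the control adipogenic libraries. Srebf2 (limma adjusted p = 0.0658 to 0.09) was lost in 9, all but those without labelled-knockout osteogenic library 3, control adipogenic library 2 or labelled-knockout adipogenic library 1. Soat1 (limma adjusted p = 0.0506 to 0.0685) was lost in 9, all but those without control osteogenic library 3, control adipogenic library 2 or labelled-knockout adipogenic library 1. These differences were -0.39 (limma adjusted p = 0.00672), -0.18 (limma adjusted p = 0.00912) and 0.47 (limma adjusted p = 0.00135) without control adipogenic library 2. Rescaled to the same sum of FPKM, the difference of Srebf2 turned to 0.02, and those of Mvd and Abcg1 no longer passed. With a block for the replicate number those of Mvd and Srebf2 did not pass. Without the filter on low values Apoe (limma adjusted p = 0.171), Mvd (0.0694) and Soat1 (0.0539) did not pass, nor did Srebf2 without the trend (0.0555).

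**Figure D5:**
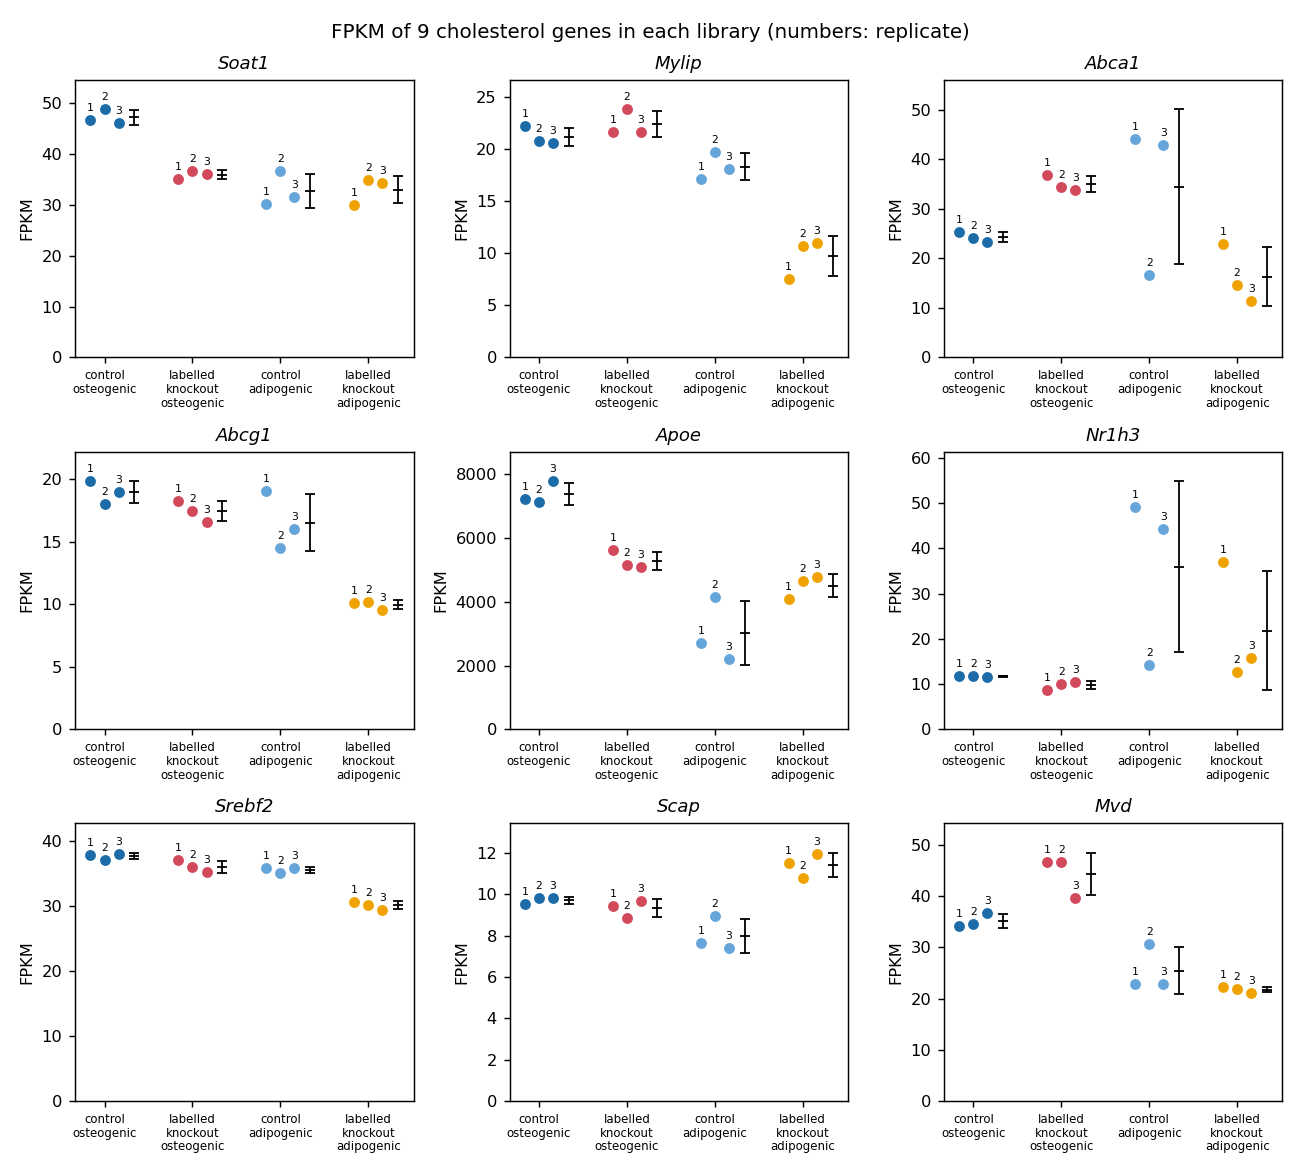
FPKM of 9 cholesterol genes in each of 12 libraries; points are libraries numbered by replicate, and bars give the mean ± SD (n = 3). Mylip and Abcg1 are lowest in the adipogenic libraries labelled knockout, at 7.53 to 11.02 and 9.54 to 10.2 FPKM, and control adipogenic library 2 differs from libraries 1 and 3 for Abca1 and Nr1h3.

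Beyond the 30, 52 genes on 6 further lists were followed, of which 48 could be tested. In adipogenic medium 4 were higher and 17 lower in libraries labelled knockout in limma, where 16.7% and 16.5% of all genes passed, and in osteogenic medium 5 and 4, where 4.94% and 4.15% did. The first numbers were 9 and 22 without control adipogenic library 2, where 3123 and 3446 of the 12871 genes passed. The shares of all genes apply to the single lists below as well. Of 9 SREBP processing and sterol-regulated degradation genes, 0 were higher and 4 lower in adipogenic and 1 and 1 in osteogenic libraries labelled knockout. For 10 genes of isoprenoid side branches these numbers were 0 and 2 in each medium. For 2 tested oxysterol enzymes they were 1 and 0 in adipogenic and 0 and 0 in osteogenic medium. Of 5 further genes listed as LXR targets 3 were lower in adipogenic libraries labelled knockout: Arl4c (-0.92), Pltp (-0.81), a phospholipid transfer protein, and Abca7 (-0.46). Whether LXR acts on each of them here was not tested. In osteogenic medium 1 of the 5 was lower, Pltp (-0.37). The interaction passed for 1 negative difference, and for 3 without control adipogenic library 2. Of 12 tested genes of sterol transport and esters 2 were higher, Cav1 (1.26), the coat protein of caveolae, and Osbpl5 (0.72), and 4 lower, among them Stard3 (-0.57) and Gramd1a (-0.55). Of 10 fatty acid genes under SREBP1, 4 were higher in osteogenic libraries labelled knockout, Me1 (0.52), Fads2 (0.52), Scd1 (0.34) and Scd2 (0.28). In adipogenic libraries labelled knockout 1 of the 10 was higher, Scd1 (0.29), and 4 were lower, among them Me1 (-0.32), Scd2 (-0.28) and Fads2 (-0.24); the interaction passed for 0 positive and 4 negative differences, in the same 4 genes. These numbers were 2 and 4, and 0 and 5, without control adipogenic library 2. Between the media, 5 of the 10 fatty acid genes were lower and 1 higher in control adipogenic libraries, and 8 were lower in labelled-knockout ones, beside the 15 of 18 synthesis enzymes lower in each genotype. Over the 48 genes, 4 were higher and 13 lower in control and 2 and 17 in labelled-knockout adipogenic libraries, where 10.5% and 12.3% and 13.9% and 14% of all genes passed. The interaction passed for 5 positive and 8 negative differences, where 10.9% and 9.58% of all genes did. Without control adipogenic library 2 there were 12 higher and 17 lower between the media in control, where 3155 and 3001 of all genes passed, and 6 positive and 18 negative interactions, where 2539 and 2895 of all genes passed.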

How the data were processed

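RNA-seq of 12 libraries was analysed from one table of FPKM that the authors deposited, fragments per kilobase with depth divided out, with a column per library. The submitters' processing notes name Bowtie 0.12.2 and mm9, whereas the paper lists HISAT2 and Ballgown, and which made the FPKM is not known; strand use and the annotation are not given in the sources used here. Identifiers were matched to GENCODE symbols and GRCm38 coordinates. Fragments were recovered from exonic lengths and the smallest steps between values, 17490797 to 21093450 per library; intervals of counting error were not used. The 12871 genes that reached 1 FPKM in 3 or more libraries were tested with limma 3.58.1 in R 4.3.3 on log2(FPKM + 1), with a mean for each of 4 groups, a trend of variance on mean, and p adjusted by Benjamini-Hochberg over all genes, at 0.05. The procedure was tested on simulated data, and no outcome of that test is given here. Figures were drawn in Python 3.11.15 with matplotlib 3.10.9.

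The 30 genes and the other lists were chosen with earlier results of these data known. All 30 are named, with values in each library for those that passed between genotypes; of the other lists, at most the 4 largest changes per comparison are named. Values in each library for Hmgcs1, Dhcr7, Insig1, Stard4 and Nr1h3, and for Lyz2, Cd68, Mrc1 and C1qc, were added after seeing the data. Alternatives were a pseudocount of 0.1, no filter, values rescaled to the same sum (TPM), median-ratio scaling, a block for the replicate number, no trend, a fit to the libraries compared alone, limma voom on recovered fragments and each library left out. A fit without control adipogenic library 2 and labelled-knockout adipogenic library 1 was chosen after seeing the data. Promoters are from RefSeq. Reads, and the other assays of the study, were not analysed here.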

Additional observations from a re-analysis of the deposited data

Results flagged for a closer look

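For 7 of the 30 cholesterol genes the difference between labelled-knockout and control libraries was itself different between the media in limma (3 positive and 4 negative, near the 10.9% and 9.58% of all genes), given as log2 fold change in adipogenic minus that in osteogenic medium. Apoe differed by 1.11 (limma adjusted p = 0.0151), with 0.62 in adipogenic and -0.48 in osteogenic medium, and did not pass without the filter on low values (0.171). For Scap the values were 0.52 (limma adjusted p = 0.0041), from 0.47 and -0.05. Soat1, at 0.39 (limma adjusted p = 0.0275), had 0.01 and -0.38, and passed in 3 of 12 fits that left out 1 library. The difference of Mylip was -0.94 (limma adjusted p = 0.00347), from -0.86 and 0.07. Abcg1, at -0.56 (limma adjusted p = 0.00873), had -0.67 and -0.11. The enzyme gene Mvd differed by -0.53 (limma adjusted p = 0.0335), from -0.20 and 0.32, and passed in 4 of the 12. Srebf2 had -0.17 (limma adjusted p = 0.0356), from -0.23 and -0.06; it passed in 3 of the 12 and was 0.02 (limma adjusted p = 0.911) under TPM. Under TPM Mvd (0.303) and Abcg1 (0.0573) did not pass by limma adjusted p, nor Mvd (0.0694) and Soat1 (0.0539) without the filter or Srebf2 without the trend (0.0555). With the replicate number as a block 5 of the 7 passed, all but Mvd and Srebf2. In control adipogenic libraries 1 and 3, which enter each of these, 11 of 16 macrophage markers were higher and 4 lower than in library 2, and the part of such markers was not tested.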

How the results depend on the processing

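Of 58 calls of the 30 genes over 5 comparisons, all 58 passed in the same direction with a pseudocount of 0.1 and with median-ratio scaling, 57 with limma voom, 56 without the trend, 48 without the filter, 44 with values rescaled to the same sum (TPM) and 30 with the replicate number as a block, which left 28 weaker. In fits to only the libraries compared, which have no interaction, 30 of 51 were kept and 21 weaker. Under TPM 1 turned, Srebf2 in the interaction, from -0.17 to 0.02. The cause was not tested. Of 390 calls in fits that left out 1 library, 317 were kept.

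In osteogenic medium 1170 genes passed between genotypes, against 526 under TPM and 3418 with only the libraries compared, and the numbers among the 30 were 1, 0 and 7; the limma count of 0 had 1 at an unadjusted p under 0.05. In adipogenic medium 4276 genes passed and 1671 with only the libraries compared; of the 30, 8 passed, 5 without the filter and 4 with only the libraries compared. The interaction passed for 7 of the 30, for 4 without the filter and 4 under TPM. Between the media in control libraries 2935 genes and 20 of the 30 passed, and 490 and 3 with only the libraries compared, whereas in labelled-knockout libraries 3592 and 22 passed, and 4808 and 25 with only the libraries compared. Why these fits gave more calls in some comparisons and fewer in others was not tested. TPM moved the median log2 fold change of all genes to 0.14 (adipogenic medium), 0.16 (interaction) and -0.10 (media in control), and the share of passing genes that were higher from 50.4% to 78.4%, from 53.1% to 75.3%, from 46.1% to 30.6% and, between the media in labelled-knockout libraries, from 49.7% to 65.5%.

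Without control adipogenic library 2 and labelled-knockout adipogenic library 1, a setting chosen after seeing the data, 6692 genes and 16 of the 30 passed between genotypes in adipogenic medium, 5902 genes in the interaction, and 6466 and 5463 between the media in control and labelled-knockout libraries, with all 57 calls of the 30 kept. Leaving out 1 library at a time gave, for all genes and for the 30, 532 to 670 and 0 to 1 between genotypes in osteogenic medium, 2791 to 6569 and 5 to 14 in adipogenic medium, 1798 to 5434 and 4 to 8 in the interaction, 1361 to 6156 and 14 to 25 between the media in control and 2500 to 2864 and 20 to 22 in labelled-knockout libraries.

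Deviations from group means were compared between libraries of equal number, by r across genes. Between genotypes r was -0.04, 0.06 and -0.03 in osteogenic and 0.47, 0.40 and -0.29 in adipogenic medium. Between the media r was -0.06, 0.09 and 0.04 in control and 0.03, -0.01 and -0.02 in labelled-knockout libraries. Not every library went best with its own number, so a pairing by number was not established. With the number as a block 2796 genes and 7 of the 30 passed between genotypes in osteogenic and 726 and 2 in adipogenic medium. The interaction passed for 1722 genes. Between the media in control 0 genes and 0 of the 30 passed in limma. There 3034 genes and 20 of the 30 had an unadjusted p under 0.05. Except for the interaction, these fits held only the libraries compared. Without the block, fits to the same libraries gave 3418 and 7, 1671 and 4, and 490 and 3.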
